A study of Mus musculus with 4 samples.

Results

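The genes described here are the CD4 and CD8 coreceptor genes of the thymocyte and the transcription factors known for choosing between the CD4 and CD8 lineages. They are Cd4, Cd8a, Cd8b1, Zbtb7b, Gata3, Runx1, Runx3, Cbfb and Patz1, taken from the deposited count table by matching its gene IDs to these 9 symbols. All 9 were found among the 56239 genes of the table, and all 9 were among the 15070 genes that passed the filter on low counts and were tested. RNA was sequenced from CD4+CD8+ double-positive (DP) thymocytes, the stage at which a developing T cell carries both coreceptors, sorted from the thymus of C57BL/6 mice. There were 2 KO libraries, from mice with Cd4-cre and floxed Chaf1b alleles (genotype label KO(Cd4-cre;CHAF1bfloxp/floxp)), and 2 WT libraries, from mice with the floxed alleles and no Cre in the label (WT(CHAF1bfloxp/floxp)). Cd4-cre is a transgene that drives Cre recombinase from Cd4 regulatory sequence, and the product of Chaf1b is a subunit (p60) of CAF-1, the chromatin assembly complex that deposits histones on newly copied DNA. Because Cre was labelled in KO mice only, an effect of the transgene and one of the deletion cannot be told apart. The labels used here state neither ages nor how many mice went into a library. Each p-value therefore reflects how far these libraries spread, which may be technical.

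In the thymus, DP cells that receive a signal through the T cell receptor stop expressing one coreceptor and keep the other. Zbtb7b (ThPOK) and Gata3 are known as factors of the CD4 helper lineage, while Runx3, together with its partner Cbfb, silences Cd4 and Zbtb7b in the CD8 cytotoxic lineage. Runx1 represses Cd4 at the earlier double-negative stage, and Patz1 (MAZR) is known to repress Cd8 at that stage and Zbtb7b in CD8 cells. Since the cells were sorted for surface CD4 and CD8, the coreceptor transcripts describe cells already chosen for both proteins.

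RefSeq promoter windows on GRCm38.p6, which run from 250 bases before to 50 bases after an annotated start, were at hand for 7 of the 9 genes (11 windows; none for Cd4 and Cd8b1). They were searched for the Runx core TGTGGT on both strands, so also as ACCACA. The core was present in 3 of the 11 windows, against 16.8% of all 32851 windows, and 2 of the 11 held it more than once, against 1.81% of all windows. Both of those were the first start sites of Runx1 and Runx3, the Runx genes among the 9. They are shown because the same stretch stands in both. Capitals mark the Runx core in the windows below, which are Runx1 at chr16:92826025-92826324 on the minus strand, Runx3 at chr4:135120395-135120694 on the plus strand, and the second start site of Zbtb7b at chr3:89387622-89387921 on the minus strand, the third window to hold the core. The Cd8a window, at chr6:71373177-71373476 on the plus strand, is shown as that of the one coreceptor gene that was lower in both KO libraries, and it had no match.
Runx1, first start site: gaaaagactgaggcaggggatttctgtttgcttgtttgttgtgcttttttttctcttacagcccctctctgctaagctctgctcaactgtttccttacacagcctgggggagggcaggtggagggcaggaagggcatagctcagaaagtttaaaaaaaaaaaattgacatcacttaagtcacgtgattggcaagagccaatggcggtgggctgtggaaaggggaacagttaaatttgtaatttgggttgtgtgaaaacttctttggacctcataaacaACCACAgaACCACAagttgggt
Runx3, first start site: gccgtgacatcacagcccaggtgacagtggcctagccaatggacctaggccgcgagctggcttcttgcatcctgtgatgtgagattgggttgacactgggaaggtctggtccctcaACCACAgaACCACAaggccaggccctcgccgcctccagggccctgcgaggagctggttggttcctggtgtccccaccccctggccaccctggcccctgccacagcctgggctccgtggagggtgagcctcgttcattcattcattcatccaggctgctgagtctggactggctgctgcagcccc
Zbtb7b, second start site: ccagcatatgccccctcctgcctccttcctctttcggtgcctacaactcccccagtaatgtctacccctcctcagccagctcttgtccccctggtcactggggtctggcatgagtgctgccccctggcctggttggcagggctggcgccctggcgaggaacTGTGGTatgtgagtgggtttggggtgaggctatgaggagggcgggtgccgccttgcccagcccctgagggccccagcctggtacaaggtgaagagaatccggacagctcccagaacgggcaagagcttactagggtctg
Cd8a: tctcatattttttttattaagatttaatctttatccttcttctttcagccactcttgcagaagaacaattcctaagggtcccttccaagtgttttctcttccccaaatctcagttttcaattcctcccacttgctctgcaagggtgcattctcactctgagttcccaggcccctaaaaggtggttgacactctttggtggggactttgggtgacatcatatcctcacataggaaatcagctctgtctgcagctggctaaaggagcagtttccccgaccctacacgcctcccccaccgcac
The longest run common to the Runx1 and Runx3 windows was 18 bases, with 2 copies of the core 2 bases apart.
Shared run: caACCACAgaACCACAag
It lay from 26 bases after the Runx1 start (chr16:92826031-92826048, minus strand) and from 136 bases before the Runx3 start (chr4:135120509-135120526, plus strand). The third Runx gene, Runx2, held the same 18 bases from 21 bases after its start (chr17:44814589-44814606, minus strand). With both strands searched, the only other of the 32851 windows with this run was that of Gm16225. The E-box CANNTG was in 9 of the 11 windows, against 72.3% of all windows, and the GATA letters AGATAA or their reverse complement TTATCT were in 0 of 11, against 11.2%. These matches describe letters in the windows and say nothing of binding.

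Libraries held 24688653 and 21068760 counts in KO replicates 1 and 2, and 23215539 and 27369874 counts in WT replicates 1 and 2. Replicate 1 of each genotype carried Xist (47301 counts in KO and 47368 in WT) and replicate 2 carried Y-linked Ddx3y (3311 in KO and 5384 in WT), so libraries of replicate 1 and of replicate 2 differ in sex. Results are given from a fit without a covariate and from another that includes replicate as a term. Chaf1b itself stood at 12.2 and 14.8 CPM (counts relative to the library's total, scaled with TMM factors) in KO libraries and at 27.9 and 31.7 CPM in WT libraries. Its log2 fold change was -1.14 ± 0.16 (SE) without a covariate. Even this targeted gene did not pass in that fit (edgeR adjusted p = 0.267), and it passed with the replicate term (edgeR adjusted p = 0.0172). KO replicate 1 stood apart: it was the library farthest from the median for 55.4% of tested genes, and mitochondrially encoded transcripts took 3.30% of its counts, against 2.03% in KO replicate 2 and 1.33% and 1.45% in WT libraries. DP markers were present, with Rag1 at 10239 and 6083 CPM in KO and 5780 and 5478 CPM in WT. Of the 7 DP markers, 3 were above and 2 below WT without overlap, where 27.9% and 28.4% of tested genes were. Transcripts of B cell and myeloid markers were scarce. The summed level of the 5 B cell markers was 1.57 to 1.59 CPM in KO and 1.48 to 3.03 CPM in WT. That of the 5 myeloid markers was 6.31 to 7.40 CPM in KO and 8.85 to 9.96 CPM in WT. Of the 3 myeloid markers tested, Lyz2 and Itgam were below WT without overlap and Csf1r was above (28.4% and 27.9% of tested genes were). Csf1r had 2.56 and 1.34 CPM in KO and 0.591 and 0.811 CPM in WT, and none of these myeloid markers passed in either fit. Granulocyte S100a8 and NK-cell Ncr1 were at 0 in all libraries. NK-cell Klrb1c had 1 and 8 counts in KO and 0 in both WT libraries. Among markers of mature single-positive thymocytes, which keep one coreceptor, Ccr7 had 7.63 and 5.74 CPM in KO and 6.16 and 3.49 CPM in WT, Klf2 had 4.10 and 3.15 CPM in KO and 4.47 and 3.21 CPM in WT, and Il7r had 0.309 and 1.06 CPM in KO and 0.380 and 0.423 CPM in WT. None of these 3 passed in either fit, their groups overlapped, and S1pr1 had 3 and 5 counts in KO and 8 and 4 counts in WT. The 5 NK and gamma-delta T cell markers summed to 98.03 and 91.2 CPM in KO and 89.4 and 76.9 CPM in WT, of which Trdc took 96.6 and 89.2 CPM in KO and 88.0 and 75.5 CPM in WT. Double-negative markers summed to 31.2 and 22.4 CPM in KO and 18.2 and 16.0 CPM in WT, dendritic cell markers to 10.3 to 12.5 CPM in KO and 7.81 to 10.97 CPM in WT, erythroid markers to at most 0.617 CPM in KO and 1.35 CPM in WT, and epithelial and stromal markers to 12.2 to 15.5 CPM in KO and 10.3 to 10.6 CPM in WT. In the fit with the replicate term 1 of the 7 DP markers, Cd1d1, fell (2.2% of tested genes did) and 1 of the 6 stromal markers, Pdgfrb, rose (1.01% did). Neither passed in the fit without a covariate (edgeR adjusted p = 0.267 for each). The part of these lists in the results below was not tested.

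None of the 9 genes passed the threshold of an adjusted p of 0.05 in either edgeR fit. The fit without a covariate called 0.00664% of the tested genes and the fit with the replicate term called 3.21%. At an unadjusted p under 0.05 the members called were also 0 in both fits. In the fit without a covariate 16.8% of all tested genes were called at that level, 8.14% higher and 8.69% lower in KO, and with the replicate term 21.4% were, 9.67% higher and 11.7% lower. The median log2 fold change of the 9 genes was 0.19 (KO over WT, fit without a covariate), beside -0.0026 for all tested genes. Their median absolute change of 0.19 was smaller than the 0.26 of all tested genes. For 6 of the 9 genes the KO and WT values did not overlap, with 5 above and 1 below in KO, where 56.3% of tested genes did not overlap (27.9% above and 28.4% below). In 2 of the 9, Zbtb7b and Cbfb, the replicate numbers gave differences of opposite sign, as they did in 27.8% of tested genes. Leaving out 1 library, an alternative chosen after seeing the data, left 9 members without overlap without KO replicate 1 (78.9% of tested genes), 7 without KO replicate 2 (85.9%), 7 without WT replicate 1 (73.5%) and 7 without WT replicate 2 (74.3%).

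**Figure D1:**
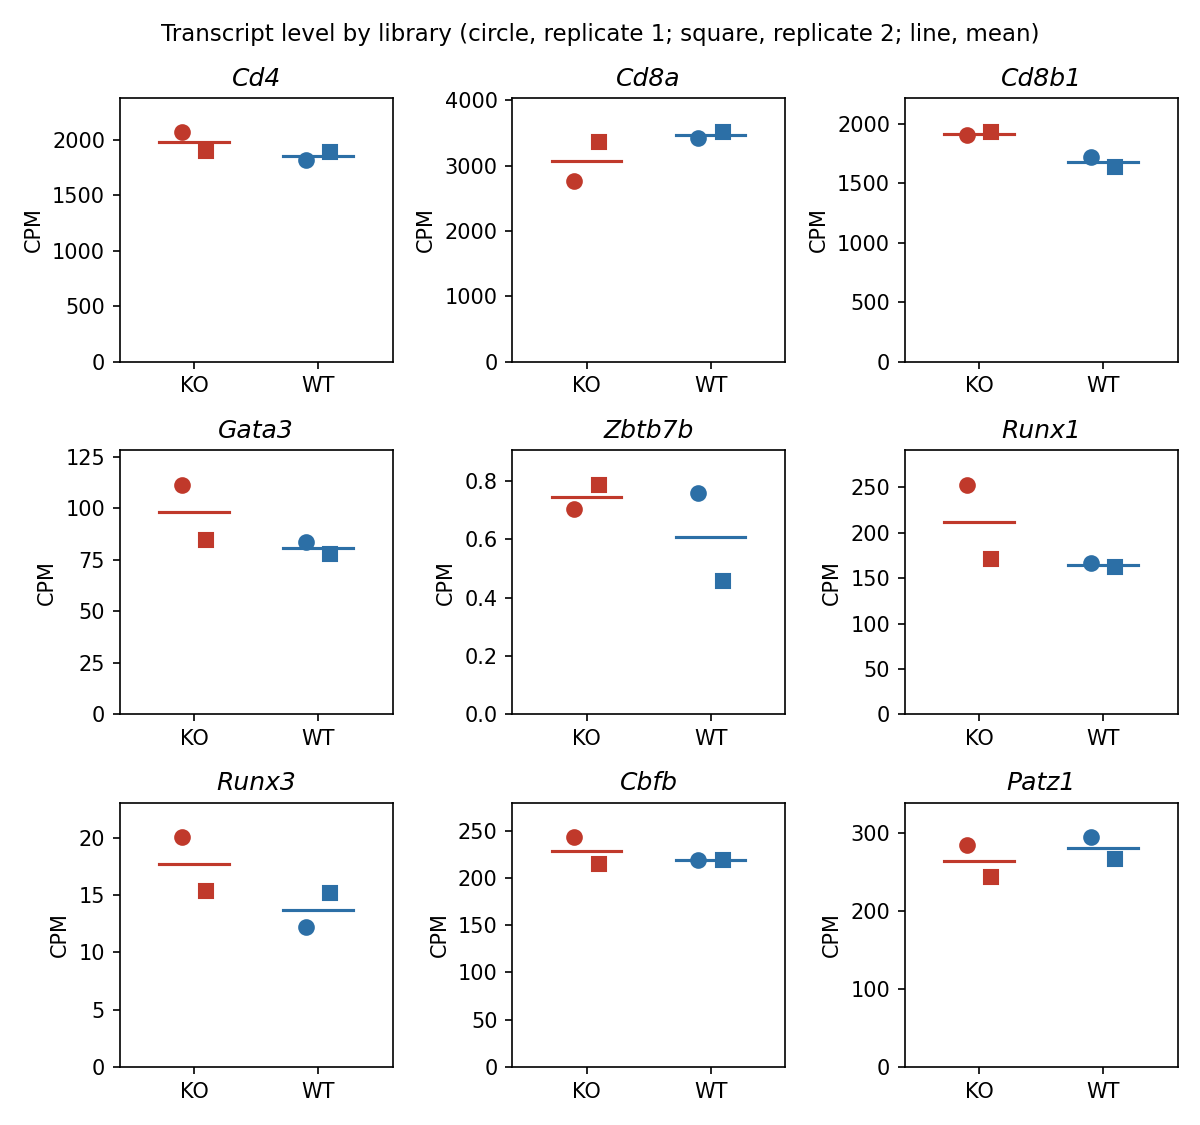
Transcript level (CPM, linear axes from 0) of the 9 genes in each library, KO left and WT right, with circles for replicate 1, squares for replicate 2 and a line at the mean of each group. The KO points of Cd8b1 lie close together above both WT points, while those of Cd8a, Runx1, Gata3 and Runx3 are spread, with replicate 1 farther from WT.

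The coreceptor genes were among the most abundant transcripts of these cells. Per kilobase of exon, Cd8b1, the beta chain of the CD8 heterodimer, had 1287 and 1300 RPKM in KO and 1162 and 1106 RPKM in WT, the 14th highest mean of the 15070 tested genes in KO and the 10th highest in WT. Cd8a, the alpha chain, came next with 759 and 926 RPKM in KO and 941 and 964 RPKM in WT, at place 31 in KO and 16 in WT. Cd4, the MHC class II coreceptor, had 512 and 470 RPKM in KO and 450 and 468 RPKM in WT, at place 52 in KO and 42 in WT. The order Cd8b1, Cd8a, Cd4, Cbfb, Patz1, Gata3, Runx1, Runx3 and Zbtb7b was the same in all 4 libraries. It rests on the exon length given in the deposited table, which sums all annotated exons of a gene (1483 bases for Cd8b1, 3637 for Cd8a and 4032 for Cd4). Within each genotype the library values of neighbouring genes in the order did not overlap. For Gata3 and Runx1 in KO they came close, with the lower Gata3 value at 21.3 RPKM and the higher Runx1 value at 20.99 RPKM (24.6 ± 4.73 and 17.6 ± 4.76 RPKM; SD, n = 2 each). Together the 3 coreceptor transcripts took 0.619% (exact 95% interval 0.616 to 0.622) and 0.738% (0.734 to 0.741) of counts in KO replicates 1 and 2, against 0.711% (0.707 to 0.714) and 0.729% (0.725 to 0.732) in WT replicates 1 and 2. These intervals cover counting error only.

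Cd8a was the one coreceptor gene with lower values in both KO libraries. It lies on chromosome 6 at 71373427 to 71379173 (GRCm38, plus strand; ENSMUSG00000053977) and had 2762 and 3368 CPM in KO replicates 1 and 2, against 3424 and 3507 CPM in WT replicates 1 and 2. The KO libraries lay below both WT libraries, and KO replicate 1 was far from the other 3. Its log2 fold change was -0.18 ± 0.18 (SE) without a covariate, a 0.884-fold level with a 95% interval of 0.649 to 1.21, and did not pass (edgeR adjusted p = 0.627, and 0.729 with the replicate term). Within replicate 1 the difference in log2 CPM was -0.31 and within replicate 2 it was -0.06.

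Cd8b1, at 71322788 to 71337494 on the same strand upstream of Cd8a (ENSMUSG00000053044), had the opposite order. It stood at 1908 and 1927 CPM in KO libraries and at 1723 and 1639 CPM in WT libraries. Here the KO libraries were alike, and the difference was 0.15 within replicate 1 and 0.23 within replicate 2. At 1918 ± 13.4 CPM in KO and 1681 ± 59.1 CPM in WT (SD, n = 2 each), it gave a log2 fold change of 0.19 ± 0.15 (SE; 1.14-fold, interval 0.880 to 1.48; edgeR adjusted p = 0.530, and 0.677 with the replicate term). It did not pass in either fit.

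Cd4 (chromosome 6, 124864692 to 124888221, minus strand; ENSMUSG00000023274) had 2066 and 1896 CPM in KO and 1814 and 1887 CPM in WT. KO replicate 2 was nearly level with WT replicate 2, so the separation of the groups was narrow. For Cd4 the log2 fold change was 0.10 ± 0.16 (SE; 1.07-fold, interval 0.820 to 1.40; edgeR adjusted p = 0.765, and 0.851 with the replicate term). In a bulk sample, fewer cells with a transcript and less RNA per cell cannot be told apart.

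Ratios between members within a library do not depend on library scaling. Per kilobase of exon, Cd8a stood at 0.590 and 0.713 times Cd8b1 in KO replicates 1 and 2, against 0.810 and 0.872 times in WT replicates 1 and 2. Both KO libraries were below both WT libraries, and the mean log2 ratio differed by -0.37 (KO minus WT), with -0.46 within replicate 1 and -0.29 within replicate 2. The SD of the log2 ratio was 0.19 in KO and 0.08 in WT (n = 2 each). The two-sided exact permutation p of the difference was 0.333, the smallest that 2 against 2 libraries allow, so no ratio here can pass 0.05. Cd4 stood at 0.675 and 0.508 times Cd8a in KO and at 0.478 and 0.485 times in WT, a mean log2 difference of 0.28 against an SD of 0.29 in KO and 0.016 in WT (exact permutation p = 0.333). For this ratio the difference was 0.50 within replicate 1 and 0.07 within replicate 2. The 4 ratios share members, and with Benjamini-Hochberg adjustment none could pass either.

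**Figure D2:**
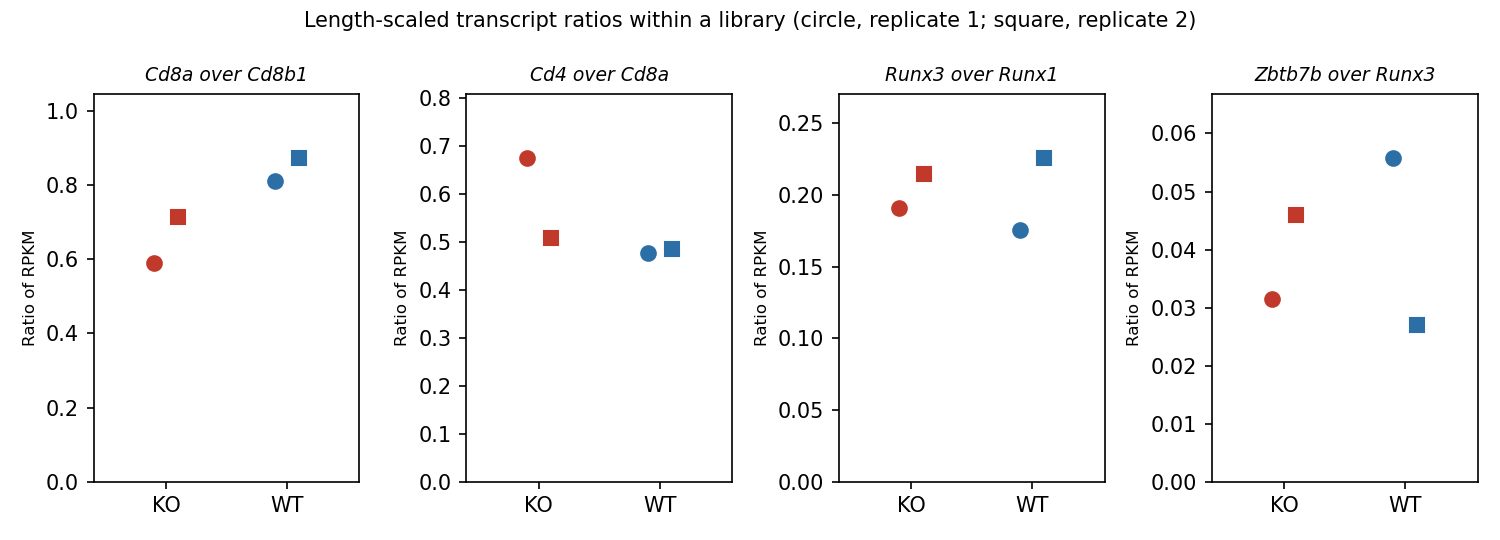
Ratio of RPKM between a pair of genes within each library (linear axes from 0), KO left and WT right, circles for replicate 1 and squares for replicate 2. Cd8a over Cd8b1 is lower in both KO libraries (0.590 and 0.713) than in both WT libraries (0.810 and 0.872), while Runx3 over Runx1 and Zbtb7b over Runx3 overlap between genotypes.

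Among the factors of the CD4 lineage, Zbtb7b was close to the lower limit of detection. It lies on chromosome 3 at 89377644 to 89394776 (minus strand; ENSMUSG00000028042) and had 16 and 17 counts in KO libraries and 18 and 13 counts in WT libraries. Exact Poisson 95% intervals for the 4 libraries ran from 6.92 to 28.4 counts and overlapped throughout, and each count was above the 3 that a count of 0 allows. In levels this was 0.706 and 0.787 CPM in KO and 0.760 and 0.459 CPM in WT. Its log2 fold change of 0.30 ± 0.49 (SE; interval of the fold 0.539 to 2.81) did not pass (edgeR adjusted p = 0.768, and 0.779 with the replicate term). Exons of Zbtb7b overlap another annotated gene, Gm15417, over 116 of its 5591 exonic bases, and fragments shared with it were not counted. Gm15417 had 6 and 3 counts in KO and 7 and 0 counts in WT.

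Gata3, a zinc-finger factor needed before Zbtb7b in the CD4 lineage, was far more abundant (chromosome 2, 9857078 to 9890034, minus strand; ENSMUSG00000015619). It had 111 and 84.7 CPM in KO, against 83.7 and 77.8 CPM in WT. Both KO values were above both WT values, KO replicate 2 by little. For Gata3 the log2 fold change was 0.28 ± 0.16 (SE; 1.21-fold, interval 0.929 to 1.59) with an edgeR adjusted p of 0.387, and 0.292 with the replicate term. Exons of Gata3 overlap 2 other annotated genes over 232 of its 3978 exonic bases, and fragments shared with them were not counted.

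Runx1 and Runx3 were highest in KO replicate 1. Runx2, which is not a member, was lowest there (1.41 and 2.27 CPM in KO, 2.32 and 2.12 CPM in WT). Runx1 (chromosome 16, 92601466 to 92826149, minus strand; ENSMUSG00000022952), the main Runx transcript of these cells, had 252 and 171 CPM in KO and 167 and 162 CPM in WT. KO replicate 2 was closer to the WT libraries than to KO replicate 1. Its log2 fold change was 0.37 ± 0.19 (SE; 1.29-fold, interval 0.932 to 1.78; edgeR adjusted p = 0.362, and 0.259 with the replicate term), with 0.59 within replicate 1 and 0.08 within replicate 2.

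Runx3 (chromosome 4, 135120652 to 135177990, plus strand; ENSMUSG00000070691), the Runx gene of the CD8 lineage, was lower in level. It had 20.0 and 15.3 CPM in KO and 12.2 and 15.2 CPM in WT. Replicate 2 was nearly level between the genotypes, and the difference lay in replicate 1 (0.71, against 0.01 within replicate 2). The log2 fold change was 0.37 ± 0.20 (SE; 1.29-fold, interval 0.912 to 1.82; edgeR adjusted p = 0.380, and 0.346 with the replicate term). Per kilobase Runx3 stood at 0.191 and 0.215 times Runx1 in KO and 0.175 and 0.226 times in WT, so the groups overlapped (mean log2 difference 0.02, exact permutation p = 1.0). Counts per gene do not separate transcripts from the first and second start sites of either gene.

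Cbfb, whose product binds every Runx protein and stabilises it on DNA, varied little between libraries (chromosome 8, 105170674 to 105217989, plus strand; ENSMUSG00000031885). It had 243 and 215 CPM in KO and 219 and 220 CPM in WT, and KO replicate 2 was the lowest of the 4. The log2 fold change was 0.06 ± 0.12 (SE; 1.04-fold, interval 0.854 to 1.27; edgeR adjusted p = 0.811, and 0.866 with the replicate term), and it turned to -0.026 with library totals in place of TMM scaling. Per kilobase Cbfb was above Runx1 and Runx3 in every library, at 69.8 and 61.7 RPKM in KO and 63.0 and 63.1 RPKM in WT.

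Patz1, the repressor MAZR, lies on chromosome 11 at 3288874 to 3309083 (plus strand; ENSMUSG00000020453). It had 284 and 244 CPM in KO and 294 and 267 CPM in WT, with overlapping groups. Within each replicate number KO was lower, by -0.05 and -0.13 on the log2 scale. For Patz1 the log2 fold change was -0.09 ± 0.13 (SE; 0.941-fold, interval 0.751 to 1.18; edgeR adjusted p = 0.752, and 0.787 with the replicate term). Its exons overlap 2 other annotated models over 693 of 5904 bases, so its counts leave out shared fragments and are uncertain to that extent.

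**Figure D3:**
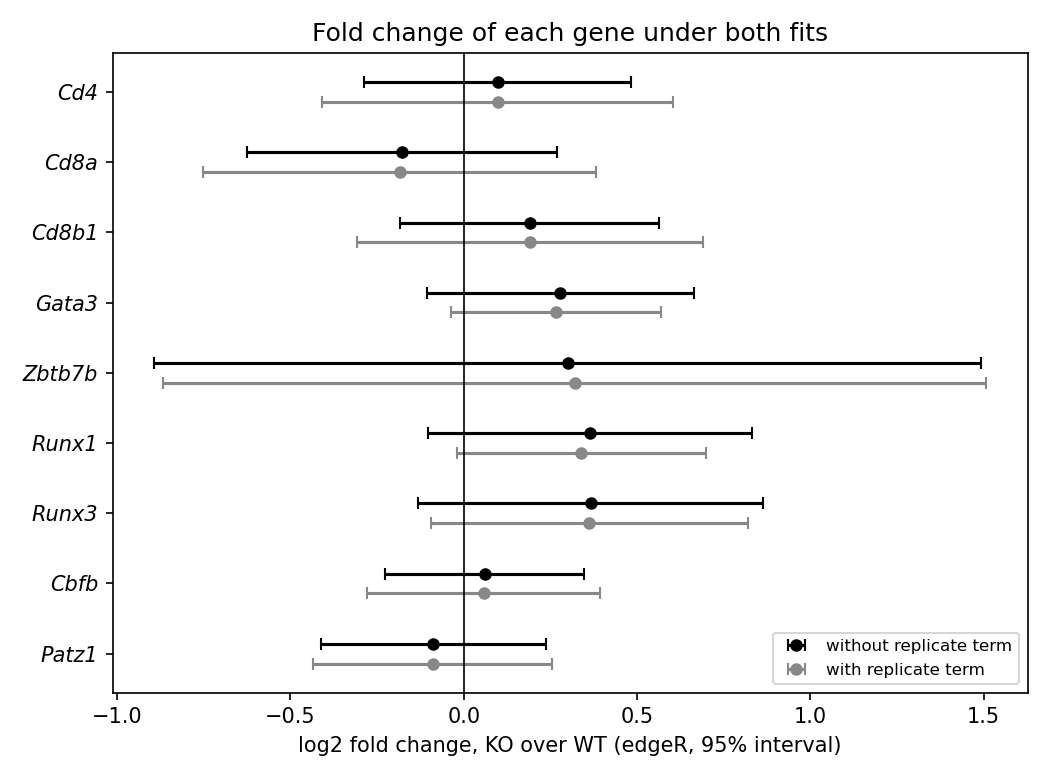
Log2 fold change of each gene, KO over WT, from edgeR without a covariate (black) and with the replicate number as a term (grey), with 95% intervals. Every interval plotted includes 0, and that of Zbtb7b is the widest.

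The 2 KO libraries differed from each other, and KO replicate 1 was the library farthest from the median for 6 of the 9 genes (Cd4, Cd8a, Gata3, Runx1, Runx3 and Cbfb), against 55.4% of all tested genes. In 6 of 9 genes the absolute difference was larger within replicate 1 than within replicate 2, where 73.3% of tested genes had that order. With KO replicate 2 left out, so that KO replicate 1 alone was set against both WT libraries and assumed to vary like them, 4 of the 9 genes passed in edgeR, where 32.3% of the genes tested then did. In that comparison Runx1 changed by 0.61 on the log2 scale (edgeR adjusted p = 8.71e-05), Gata3 by 0.46 (0.00197), Runx3 by 0.54 (0.0339) and Cd8a by -0.33 (0.0456). With KO replicate 1 left out, 0 of the 9 passed, against 3.31% of genes (1.09% higher and 2.22% lower), and the same 4 log2 fold changes were 0.06, 0.07, 0.16 and -0.04. Cd8b1 differed from these: its log2 fold change was 0.20 without KO replicate 1 and 0.18 without KO replicate 2, and it passed in neither (edgeR adjusted p = 0.0907 and 0.226). Leaving out WT replicate 1 gave 0 calls among the 9, against 0.0127% of genes, and leaving out WT replicate 2 also gave 0, against 0.00634%.

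**Figure D4:**
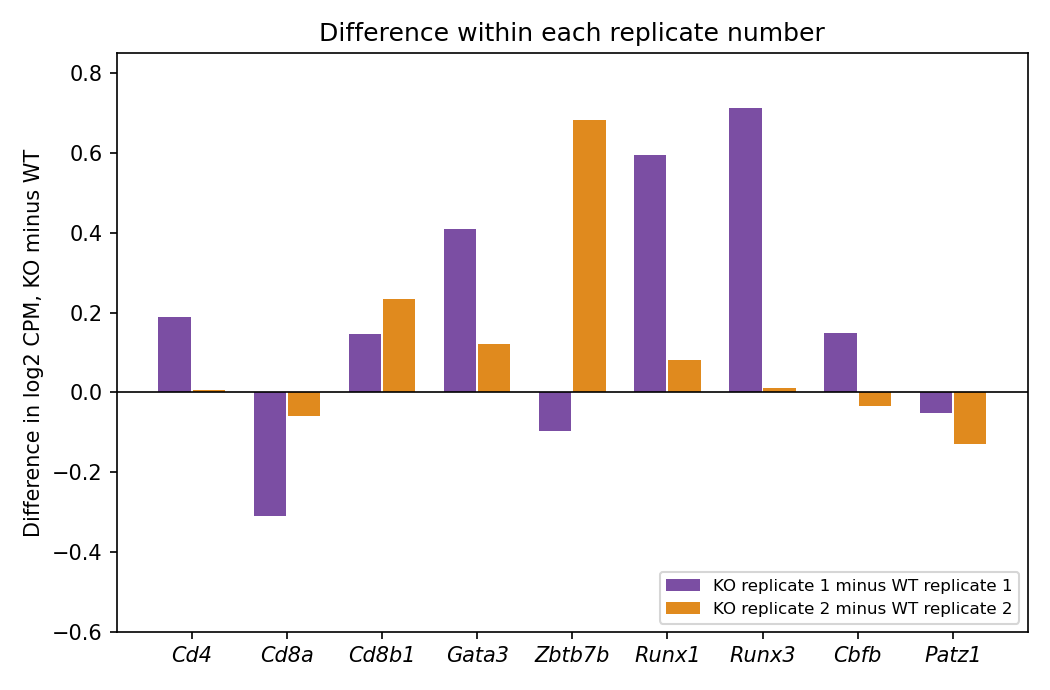
Difference in log2 CPM (KO minus WT, prior count of 2) within replicate 1 (purple) and within replicate 2 (orange) for each gene; each bar is 1 KO library against 1 WT library. The Runx1 bars are 0.59 and 0.08 and the Runx3 bars 0.71 and 0.01, while Cd8b1 has 0.15 and 0.23.

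Other genes tied to coreceptor expression and lineage choice were read from 5 lists with 51 genes, of which 44 were tested. In the fit without a covariate 0 rose and 0 fell, and in the fit with the replicate term 1 rose (1.01% of tested genes did) and 0 fell (2.2% did). The gene that rose was Gzma, a granzyme of cytotoxic cells, with 54.5 and 31.2 CPM in KO and 22.4 and 17.6 CPM in WT. Its log2 fold change was 1.06 ± 0.17 (SE) with an edgeR adjusted p of 0.0194 with the replicate term, and it did not pass without that term (adjusted p = 0.267). Without KO replicate 2 the fit without a covariate called 13 of these genes higher and 10 lower, where 15.8% and 16.5% of the genes tested then were called.

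The list of 13 regulators of the coreceptor genes had 5 genes above and 4 below WT without overlap, where 27.9% of all tested genes were above and 28.4% below, and a median log2 fold change of 0.03, beside -0.0026 for all tested genes. Its most abundant members did not pass. Tcf7, which encodes TCF-1, had 3897 and 3594 CPM in KO and 4181 and 3781 CPM in WT. The chromatin organiser Satb1 had 3375 and 3289 CPM in KO and 3100 and 3269 CPM in WT. Myb, named after its values were seen, had 536 and 776 CPM in KO and 1160 and 1161 CPM in WT. Its log2 fold change was -0.82 ± 0.21 (SE) without a covariate. It did not pass (edgeR adjusted p = 0.267, and 0.0536 with the replicate term). Of the 10 chromatin factors known from work on Cd4, Cd8 or Zbtb7b, 5 were above and 2 below WT, beside the same 27.9% and 28.4% of all tested genes, with a median of 0.23. The remodelling ATPases Chd4 (1340 and 886 CPM in KO, 840 and 788 CPM in WT) and Smarca4 (1046 and 694 CPM in KO, 621 and 678 CPM in WT) had their highest value in KO replicate 1. Neither passed (edgeR adjusted p = 0.340 and 0.361 without a covariate).

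The 11 genes of coreceptor and cytokine signalling had a median log2 fold change of -0.01, with 3 above and 3 below WT (27.9% and 28.4% of all tested genes). Lck, the kinase bound by both coreceptors, had 1427 and 1701 CPM in KO and 2105 and 1867 CPM in WT, with both KO libraries below both WT libraries and an edgeR adjusted p of 0.351. Stat5b, which relays cytokine signals, had 657 and 637 CPM in KO and 603 and 613 CPM in WT. Of the 5 genes listed as helper-lineage 4 were tested and none passed in either fit. Cd5 had 193 and 205 CPM in KO and 203 and 201 CPM in WT. Cd2 had 87.4 and 76.3 CPM in KO and 77.7 and 67.4 CPM in WT. The other tested genes of this list, named after their values were seen, did not overlap between genotypes (27.9% of all tested genes were above and 28.4% below). Icos was above, with 16.8 and 17.0 CPM in KO and 13.3 and 12.1 CPM in WT. Tnfrsf4 was below, with 1.37 and 2.31 CPM in KO and 3.38 and 2.86 CPM in WT. The helper ligand gene Cd40lg had 1 and 3 counts in KO and 2 and 1 counts in WT, at or under the floor of 3. Of the 12 cytotoxic-lineage genes 6 were tested, and Gzmb and Klrd1 had 0 counts in every library.

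The nearest tested gene on each side of each member, 18 genes in all, gave 0 calls in either fit. For Cd4 these were Gpr162, 708 bases away, with 201 and 241 CPM in KO and 286 and 275 CPM in WT, and Lag3, which encodes another receptor for MHC class II, with 13.7 and 18.2 CPM in KO and 16.6 and 22.0 CPM in WT. Both are named although they did not pass, a choice made after their values were seen.

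The genes whose pattern over the 4 libraries was nearest to that of a coreceptor gene were found by the root mean square difference of centred log2 CPM among 8764 tested genes with a mean of at least 10 CPM. For Cd4 they were Depdc1b (0.0030) and Suco (0.0074). For Cd8a they were Srfbp1 (0.0042) and Il2rg (0.010), the common cytokine receptor chain, which had 159 and 194 CPM in KO and 194 and 202 CPM in WT. For Cd8b1 they were Rhbdd2 (0.0042) and Lrrc8d (0.0073). Among the members, Cd4 and Cbfb had the most similar pattern (0.034), followed by Gata3 and Runx1 (0.072), and Cd8a and Runx1 the least similar (0.40). With 4 libraries such likeness describes these samples only.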

How the data were processed

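Poly(A)-selected RNA of 4 libraries was sequenced after an NEBNext Ultra preparation, which keeps no strand information, per the labels' protocols. The submitters' processing notes name the GRCm38 build, HISAT2, DESeq2, FastQC, featureCounts 1.6.4 and Trim Galore 0.5.0. Per the file headers, the authors ran featureCounts 1.6.3, and the deposited table holds unnormalised counts of read pairs over exons of the Ensembl 98 annotation, unstranded and without options for multi-mapped or multi-gene fragments. Antisense overlap therefore cannot be resolved. Exon lengths are those of the deposited table. Symbols came from GENCODE M21, which matched 55154 of 56239 IDs.

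Counts were analysed in R 4.3.3. Genes passing edgeR 4.0.16's filterByExpr (15070) were TMM-scaled and tested with the quasi-likelihood F test, KO over WT, with Benjamini-Hochberg adjustment over all tested genes and a threshold of 0.05. The fit without a covariate has 2 residual degrees of freedom and the one that adds replicate number has 1. RPKM is CPM per kilobase of exon. Log2 CPM within pairs uses a prior count of 2. Ratios were tested with exact permutation tests. Intervals and floors (3 counts) cover counting error only. DESeq2 1.42.0, limma 3.58.1 (voom), other scaling, filtering and dispersion choices and leaving out each library were alternatives. The edgeR steps were tested on simulated counts. These held no replicate effect and no library that stood apart, so the test does not cover those features of the data.

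The members, lists, fits and tests were chosen with earlier results of these data known. The naming rule took the members, Chaf1b, up to 4 called genes of each list or else its 2 most abundant, called neighbours, and the 2 genes nearest in pattern to Cd4, Cd8a and Cd8b1. Of the cell type markers, 2 are not reported here, so the mature single-positive list is given in part and without its sum.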

Additional observations from a re-analysis of the deposited data

Results flagged for a closer look

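Values of opposite sign in the replicate numbers, each from 1 KO and 1 WT library and with the difference between them not tested, were seen for 2 of the 9 genes, where 27.8% of tested genes had opposite signs. Zbtb7b had a log2 difference (KO minus WT) of -0.10 in replicate 1 and 0.68 in replicate 2, on 13 to 18 counts a library. Cbfb had 0.15 in replicate 1 and -0.033 in replicate 2. Of the 4 ratios, Runx3 over Runx1 had 0.12 in replicate 1 and -0.071 in replicate 2, and Zbtb7b over Runx3 had -0.82 in replicate 1 and 0.77 in replicate 2.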

How the results depend on the processing

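With 2 libraries a genotype, counts of calls moved with the settings. DESeq2 gave no adjusted p for Zbtb7b with or without the replicate term. Below, Zbtb7b is taken as not called there, and its values are counted by direction alone. None of the 9 genes was called under any alternative except without KO replicate 2: calls ranged from 0 to 4 over the left-out libraries and were 0 otherwise. Of 153 values of single members under the alternatives, 144 kept direction and call, 4 became calls (given in the results, all without KO replicate 2) and 5 turned sign. Those were Zbtb7b without WT replicate 2 (-0.024; -0.024 to 0.70 over left-out libraries), Cbfb with library totals (-0.026, and -0.025 with the replicate term) and without KO replicate 1 (-0.027; range -0.027 to 0.14), and Patz1 without KO replicate 2 (0.014; range -0.20 to 0.014). The median of the 9 was 0.064 without KO replicate 1 and ranged up to 0.22 over left-out libraries. Leaving out single libraries moved the mean log2 difference of the ratio Runx3 over Runx1 between -0.16 and 0.21, of Zbtb7b over Runx3 between -0.55 and 0.50, of Cd4 over Cd8a between 0.08 and 0.49 and of Cd8a over Cd8b1 between -0.51 and -0.24. The cause of these shifts was not tested.

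Without a covariate, genes called higher and lower were 1 and 0. They were 152 and 331 with the replicate block, 627 and 838 with no low-count filter and 172 and 276 with DESeq2, and over left-out libraries they ranged from 1 to 2518 higher and from 0 to 2630 lower. With the term, 152 and 331 became 1 and 0 with no replicate block, 26 and 119 with library totals, 556 and 965 with no low-count filter and 29 and 47 with robust dispersions. Of the related genes, 0 higher and 0 lower without a covariate became 1 higher with the replicate block, 1 higher and 1 lower with no filter and with DESeq2, and over left-out libraries 0 to 13 higher and 0 to 10 lower. With the term, 1 higher and 0 lower became 0 higher with no replicate block, and 1 lower was called with library totals, no filter, DESeq2 or limma-voom. Library totals moved the median of all genes to -0.08 without the term and -0.09 with it. Deviations from the group means correlated at 0.47 between libraries of the same replicate number over 15070 genes, but the labels do not tie the numbers to animals or days. No alternative with a library left out was run with the replicate term, since no residual degree of freedom would remain.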

Other observations

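A noncoding model between Cd8b1 and Cd8a, Gm44175 (chromosome 6, 71354351 to 71360829, minus strand), was chosen after its values were seen. It had 109 and 155 CPM in KO and 146 and 169 CPM in WT, so the groups overlapped, unlike those of Cd8a. Within each replicate number KO was lower, where 27.8% of tested genes had opposite signs. The log2 fold change of Gm44175 was -0.26 ± 0.19 (SE), and it did not pass (edgeR adjusted p = 0.496, and 0.302 with the replicate term). The models whose exons overlap Patz1, which the naming rule did not cover, were lower in both KO libraries than in both WT libraries. Of all tested genes 28.4% were. Gm12592 had 5.56 and 4.86 CPM in KO and 9.03 and 7.37 CPM in WT (log2 fold change -0.65, edgeR adjusted p = 0.267), and Gm11944 had 21.6 and 23.1 CPM in KO and 31.1 and 25.9 CPM in WT (-0.35, edgeR adjusted p = 0.300). Neither passed in either fit.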
